A study of Mus musculus with 2 samples.

Results

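Genes of sterol and fatty acid synthesis were followed in mouse pancreatic islets: 31 genes picked by name for their place in the pathway, of 28692 genes in the files. They were 1 gene of acetyl-CoA supply, 6 of the mevalonate steps, 9 between squalene and cholesterol, 6 of sterol sensing and transport, 5 of fatty acid synthesis and desaturation, and 4 that handle polyunsaturated fatty acids. They were listed by symbol with no threshold on a measured value, although earlier results of these data were known when the list was drawn up. The series concerns BAF60C, a subunit of BAF chromatin remodellers encoded by Smarcd3, in type 2 diabetes. Its 2 single-cell libraries were BcBKO, described as an ablation in beta cells and associated with Pdx1-cre, and flox/flox, the floxed genotype. The Pdx1 promoter that drives Cre is active in the embryonic pancreas as well as in adult beta cells, so the recombination need not be limited to beta cells. Each library was 1 pool of islets from at least 3 mice, and age, sex and strain are not given in the sources used here.

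Cells make cholesterol and fatty acids from the same building block, cytosolic acetyl-CoA, which ATP citrate lyase (Acly) splits from citrate exported by mitochondria. One branch condenses it through mevalonate to squalene and closes the rings to sterols, and the other builds saturated chains that elongases and desaturases then modify. Both branches are controlled by SREBP transcription factors, which SCAP escorts out of the endoplasmic reticulum when sterols are low and which INSIG proteins hold back when sterols are sufficient. In beta cells, part of the carbon of glucose leaves the mitochondria as citrate, and membrane for secretory granules needs a supply of both lipids.

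Promoters of 24 of the 31 genes were found in the RefSeq table of the GRCm38.p6 assembly. The 250 bases before the start annotated in that table are shown for 5 genes, because these genes carry the results on beta cells and on insulin content that follow, or stand apart in them. In GENCODE M21, the source of other positions here, Msmo1 starts at 64733792 and Insig1 at 28071363. Both of these starts lie inside the bases shown, so part of those bases is within the gene by that annotation. Capitals mark the letters CCAAT on either strand (ATTGG as printed on the other), the box of the factor NF-Y that works beside SREBP at many sterol genes, and in Hmgcs1 the sterol regulatory element searched as TCACNCCAC. Sequences run 5′ to 3′ on the gene's own strand.
The promoter of Hmgcs1, the synthase that enters the mevalonate pathway, lies on chr13:119690101-119690350, plus strand.
Hmgcs1: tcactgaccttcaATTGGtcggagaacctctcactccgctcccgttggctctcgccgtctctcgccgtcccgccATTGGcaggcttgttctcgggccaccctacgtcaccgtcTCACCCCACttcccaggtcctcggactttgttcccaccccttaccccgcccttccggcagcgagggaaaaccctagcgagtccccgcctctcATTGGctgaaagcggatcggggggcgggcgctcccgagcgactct
The promoter of Msmo1, an oxidase that strips methyl groups from the sterol ring, lies on chr8:64733579-64733828, minus strand.
Msmo1: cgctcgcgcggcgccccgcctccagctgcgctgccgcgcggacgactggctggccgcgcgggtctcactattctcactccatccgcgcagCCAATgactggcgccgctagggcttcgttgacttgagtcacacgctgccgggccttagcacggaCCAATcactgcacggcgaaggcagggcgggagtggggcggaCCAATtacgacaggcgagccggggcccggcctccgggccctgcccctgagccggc
The promoter of Insig1 lies on chr5:28071162-28071411, plus strand.
Insig1: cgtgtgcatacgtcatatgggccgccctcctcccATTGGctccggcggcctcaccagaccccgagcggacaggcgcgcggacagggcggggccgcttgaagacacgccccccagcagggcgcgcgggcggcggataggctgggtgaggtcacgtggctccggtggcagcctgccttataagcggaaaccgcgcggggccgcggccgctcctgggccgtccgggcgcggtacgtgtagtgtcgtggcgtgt
The promoter of Fasn, fatty acid synthase, lies on chr11:120824548-120824797, minus strand, and its last pair of capital boxes overlap.
Fasn: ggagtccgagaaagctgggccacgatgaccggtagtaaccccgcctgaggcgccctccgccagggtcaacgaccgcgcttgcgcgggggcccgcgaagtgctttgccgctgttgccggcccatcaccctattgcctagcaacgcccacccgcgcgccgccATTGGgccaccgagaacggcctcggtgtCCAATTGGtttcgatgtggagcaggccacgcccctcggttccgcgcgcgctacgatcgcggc
The promoter of Acly lies on chr11:100528001-100528250, minus strand, and holds no CCAAT on either strand.
Acly: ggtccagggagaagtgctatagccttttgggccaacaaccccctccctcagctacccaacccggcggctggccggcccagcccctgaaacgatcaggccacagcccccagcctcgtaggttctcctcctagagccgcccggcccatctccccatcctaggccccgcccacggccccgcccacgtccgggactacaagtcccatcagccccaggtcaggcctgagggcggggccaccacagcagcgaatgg
Some genes have several annotated starts, so 32 promoters were searched on both strands. CCAAT was found in 19 of them (59.4%), against 33.8% of all 32851 promoters in the table. The GC box GGGCGG was found in 68.8%, against 32.7%, and the E-box CACGTG in 18.8%, against 6.02%. The letters TCACNCCAC were found in 1 of the 32, that of Hmgcs1, 137 bases before the start, against 1.05% of all promoters. A match of letters is a description of the sequence and was not tied to any measurement here.

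Droplets were read with a kit that tags each RNA molecule near its 3′ end with a unique molecular identifier (UMI), so one count stands for one molecule and levels were not divided by gene length. There were 10775 barcodes with 178647270 UMIs under the label BcBKO, against 9438 barcodes with 167670996 UMIs under flox/flox, and 23 barcodes occurred in both. Barcodes with at least 500 genes, at least 1000 UMIs and at most 20% mitochondrial UMIs were kept, which left 8504 and 7568. In beta cells Smarcd3, the gene read as the target, had 71 UMIs (0.610 CPM) in the library labelled BcBKO, against 45 (0.374 CPM) under flox/flox. The target was thus not lower, although a 3′ tag need not lie in the deleted part. Its group is therefore named by the label alone, and every direction between libraries rests on that label. There was 1 library per group, so no difference was tested. Every interval is a 95% interval for counting error only and covers neither mice nor preparations.

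Cells were put into 6 classes by fixed limits, and UMIs were summed per class and given as counts per 1e+06 UMIs of the class (CPM). Beta cells had at least 25% of UMIs from Ins1 and Ins2, at least 10000 UMIs, and Gcg, Sst and Ppy each under 1%. The other classes had under 15% insulin, and needed Gcg at 10% (alpha), Sst at 5% (delta), 3 UMIs of Plvap and Cdh5 (endothelial), 5 of Rgs5 and Pdgfrb (mural) or 5 of C1qa and C1qb (macrophage). There were 3058 beta cells in the library labelled BcBKO and 2750 in the flox/flox library, with medians of 33171.5 and 38461.5 UMIs. The mural label did not hold for most of its barcodes. Of 665 and 794 barcodes that met the mural limit, 498 (74.9%) and 569 (71.7%) also met the endothelial limit. Those barcodes had both sets of markers: Kdr, an endothelial receptor, was at 2998 and 2631 CPM, and Rgs5, a mural gene, at 4462 and 5022 CPM. They also had medians of 9533 and 11648 UMIs, against 4004.5 and 4308 in barcodes that were endothelial only. Levels across classes are therefore given for barcodes that met 1 limit only, which left 163 and 223 mural, 996 and 1178 endothelial, 634 and 377 alpha, 308 and 242 delta and 331 and 422 macrophage barcodes.

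In beta cells the pathway had nearly the same levels in both libraries. Of the 31 genes, 21 passed a minimum of 5 CPM on average and 30 UMIs. A gene is called higher or lower here when its log2 ratio of CPM + 1, the library labelled BcBKO over flox/flox, is at least 0.32 above or below 0. A single gene, Scd2, was higher by that limit and 0 were lower, beside 2.96% of all genes higher and 1.12% lower at the same minimum. The median log2 ratio of the 21 was 0.06, that of all 7576 genes 0.05. With hormone and mitochondrial genes left out of the totals both medians were -0.01.

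Acly was the most abundant gene of the pathway. It was at 279.6 CPM (276.6 to 282.6) in beta cells of the library labelled BcBKO and at 237.7 CPM (235.0 to 240.5) in those of the flox/flox library, a ratio of 1.18 (1.16 to 1.19). The intervals did not overlap, but the ratio stayed within the limit. Acly lies on chromosome 11, from 100476353 to 100528000 of GRCm38.

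Genes of the mevalonate steps, which turn acetyl-CoA into isoprenoid units, lay on both sides of equality. Pmvk, which adds the last phosphate to mevalonate, was at 18.8 and 15.8 CPM in the libraries labelled BcBKO and flox/flox, a ratio of 1.19 (1.12 to 1.26). Hmgcs1 was at 17.0 and 18.7 CPM (ratio 0.91, 0.86 to 0.97), and Idi1, the isomerase of the isoprenoid units, at 7.99 and 9.12 CPM (0.88, 0.80 to 0.96). Fdps, which joins these units to farnesyl diphosphate, was at 20.8 and 21.8 CPM, with overlapping intervals. Mvk and Mvd, a kinase and a decarboxylase of the same chain, were under the minimum at 4.56 and 2.44 CPM in the library labelled BcBKO, against 4.01 and 1.94 CPM in the flox/flox library. Summed over the 6 genes the level was 71.6 CPM in the library labelled BcBKO and 71.4 CPM in the flox/flox library, a ratio of 1.00 (0.974 to 1.03).

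The steps from squalene to cholesterol summed to 115.5 and 115.2 CPM (ratio 1.00, 0.979 to 1.03). With hormone and mitochondrial UMIs left out of the totals the ratio for these steps was 0.955. Msmo1 was the highest of them, at 36.3 CPM (35.2 to 37.4) in the library labelled BcBKO and 40.9 CPM (39.8 to 42.1) in the flox/flox library, a ratio of 0.89. Sqle, squalene epoxidase, stood on the other side at 30.1 CPM (29.1 to 31.1), against 27.1 CPM (26.1 to 28.0), a ratio of 1.11. Cyp51, which removes a methyl group from lanosterol, was at 14.8 and 13.7 CPM. Fdft1, squalene synthase, was at 10.1 and 10.5 CPM, and Sc5d, a sterol desaturase, at 8.80 and 8.43 CPM, in both cases with overlapping intervals. The 4 others, Lss, Nsdhl, Hsd17b7 and Dhcr7, were between 2.41 and 5.07 CPM in the library labelled BcBKO and between 2.08 and 4.83 CPM in the flox/flox library, under the minimum.

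Among the regulators, Insig1, whose own gene is a target of SREBP, was at 42.6 and 43.9 CPM, and its paralog Insig2 at 22.5 and 22.3 CPM. The SREBP genes Srebf2, best known for sterol genes, and Srebf1, best known for fatty acid genes, were at 14.4 and 12.4 CPM in the library labelled BcBKO, against 13.5 and 11.1 CPM in the flox/flox library. Scap was at 7.68 and 7.99 CPM. Stard4, which carries cholesterol between membranes, was under the minimum at 4.67 and 4.76 CPM. Of these 6 genes only Srebf1 had a ratio whose interval left out 1 (1.12, 1.04 to 1.20).

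Scd2 was the single called gene of the pathway in beta cells. It encodes a stearoyl-CoA desaturase, which puts the first double bond into saturated fatty acids, and lies on chromosome 19, from 44293674 to 44306864. It was at 20.7 CPM (19.9 to 21.5) in the library labelled BcBKO and at 15.4 CPM (14.7 to 16.2) in the flox/flox library, a ratio of 1.34 (1.26 to 1.43) and a log2 ratio of 0.40. Under 11 other ways of scaling, filtering and choosing cells the log2 ratio was between 0.32 and 0.42 and past the limit in all 11. Its neighbour Scd1, the main liver enzyme in mice, had 27 and 12 UMIs in all beta cells, under the minimum. The other genes of fatty acid synthesis that were past the minimum, or near it, had ratios within the limit. Acaca, acetyl-CoA carboxylase, was at 6.70 and 6.02 CPM, Fasn at 5.36 and 4.39 CPM (ratio 1.22, 1.08 to 1.37), and the elongase Elovl6 at 8.42 and 8.04 CPM. The 5 genes summed to 41.4 and 34.0 CPM, a ratio of 1.22 (1.17 to 1.27). Most of that difference in CPM came from Scd2.

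For polyunsaturated fatty acids, the elongase Elovl5 was at 25.8 and 24.8 CPM, Acsl4, which activates arachidonic acid, at 11.6 and 10.7 CPM, and the desaturase Fads1 at 5.69 and 5.47 CPM. All 3 intervals of the ratio included 1. Fads2, the other desaturase of this route, had 7 UMIs in the library labelled BcBKO and 2 in the flox/flox library over all beta cells.

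**Figure D1:**
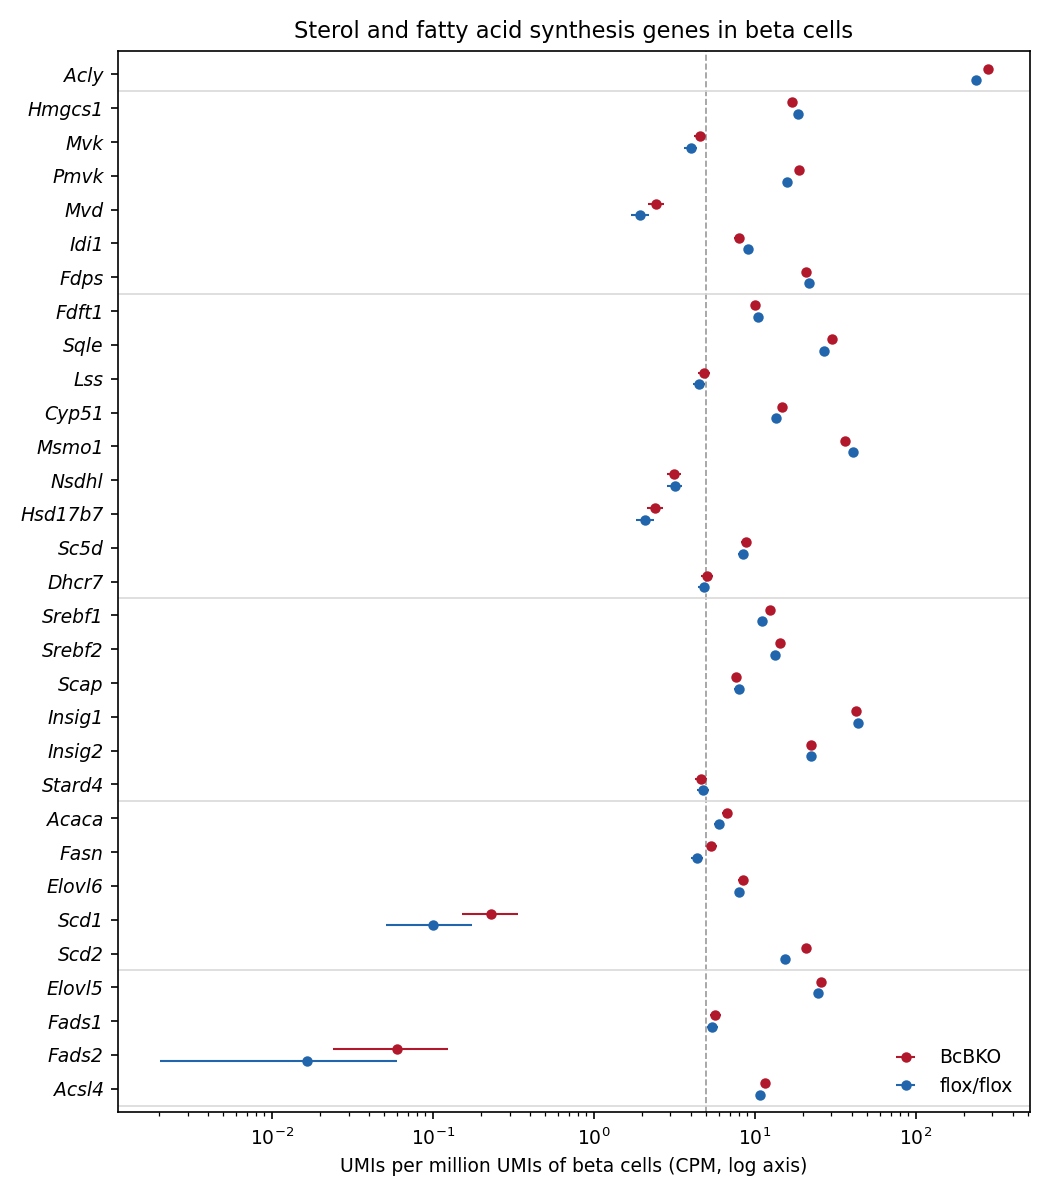
Level of each of the 31 genes in beta cells, in CPM (log axis), for the libraries labelled BcBKO (red) and flox/flox (blue), with 95% counting intervals, ordered by role. The dashed line marks the minimum of 5 CPM, and Scd1 and Fads2 lie far below it while Acly lies far above the rest.

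RNA of other cells differed between the libraries beside these values. The 5 acinar markers summed to 18.9 CPM in beta cells of the library labelled BcBKO and 118.4 CPM in those of the flox/flox library. Each of the 5 had UMIs in both libraries. The 6 endothelial markers summed to 46.6 and 46.9 CPM, and each of the 6 had UMIs in both. Markers of other cells were higher under the label BcBKO, again with UMIs of every marker in both: the 4 delta markers summed to 291 and 117 CPM, the 6 alpha markers to 2053 and 1569 CPM and the 6 macrophage markers to 64.1 and 42.8 CPM. Ppy, the marker of PP cells, was at 274 and 179 CPM. The part of any of these in the ratios was not tested. With each beta cell thinned to 10000 UMIs, 1 of 24 genes was higher and 0 lower, beside 5.15% and 1.41% of all genes.

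Of 27 other genes of lipid metabolism on a list of neighbours of the pathway, 19 passed the minimum in beta cells. Past the limit, 2 were higher and 0 lower in the library labelled BcBKO, beside 2.96% and 1.12% of all genes, and their median log2 ratio was 0.08, that of all genes 0.05. Elovl2, an elongase of very long polyunsaturated chains, was at 7.33 and 5.35 CPM (ratio 1.37, 1.24 to 1.52). Abcg1, a sterol exporter, was at 15.8 and 11.99 CPM (1.32, 1.23 to 1.42). The related exporter Abca1 lay on the other side, at 32.8 CPM in the library labelled BcBKO and 38.1 CPM in the flox/flox library (0.86, 0.82 to 0.90).

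In alpha cells many genes of the pathway had higher levels in the library labelled BcBKO. Of 27 genes that passed the minimum, 13 were past the limit higher in the library labelled BcBKO and 0 lower, beside 13.8% of all genes higher and 2.89% lower. Their median log2 ratio was 0.31, that of all genes 0.10. Acly was at 209.7 CPM (200.5 to 219.3) in alpha cells of the library labelled BcBKO and 159.2 CPM (149.5 to 169.3) in those of the flox/flox library, a ratio of 1.32 (1.22 to 1.42). Msmo1 was at 23.1 and 14.3 CPM (1.62, 1.26 to 2.09). Its levels thus stood in opposite orders in alpha and in beta cells, a difference that was not tested.

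The other 12 higher genes in alpha cells came from the 5 remaining roles, with Mvk alone from the mevalonate steps. Between squalene and cholesterol, Fdft1 was at 13.5 and 8.64 CPM (1.57, 1.13 to 2.19), Cyp51 at 17.1 and 11.0 CPM (1.55, 1.17 to 2.09), and Dhcr7, the last reductase of cholesterol synthesis, at 6.45 and 4.87 CPM. Among regulators, Srebf2 was at 19.7 and 14.5 CPM (1.36, 1.05 to 1.77), Insig1 at 25.05 and 19.8 CPM and Insig2 at 23.4 and 18.4 CPM. Scd2 was again higher, at 21.5 and 15.4 CPM (1.40, 1.09 to 1.80). Fads1 was at 6.67 and 4.09 CPM (1.63, 1.02 to 2.69). Mvk, Elovl5 and Acsl4 were also past the limit, with ratios of 1.49, 1.33 and 1.30, but their intervals and that of Dhcr7 included 1. Sqle, the neighbour of Fdft1 in the chain, was at 17.1 and 18.7 CPM, and Pmvk at 31.3 and 35.7 CPM, both lower by less than the limit.

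The count in alpha cells depended on the scaling. With TMM factors the median of all genes was -0.0034 and 6 of the 27 genes were past the limit higher, beside 7.18% of all genes. At a limit of 1.5-fold 4 were, beside 2.44%. In all 10 alternatives the 13 genes kept the sign of their log2 ratio, but not all stayed past the limit. Dhcr7 did in 2 of the 10, Acsl4 in 3, Insig1 in 4, Insig2 in 5, Elovl5 in 6, Acly and Srebf2 in 8 and Scd2 in 9, and Mvk, Fdft1, Cyp51, Msmo1 and Fads1 in all 10. Hormone genes took 37.8% of alpha UMIs in the library labelled BcBKO and 40.6% in the flox/flox library. Beta-cell markers (8 of 8 with UMIs) summed to 31688 and 24132 CPM, and acinar markers (5 of 5) to 59.6 and 319 CPM. The duct markers (2 of 2) summed to 191 and 89.4 CPM and the endothelial markers (6 of 6) to 131 and 81.4 CPM. Mural markers summed to 33.0 and 9.27 CPM, with 0 and 1 of 5 without UMIs, and delta markers (4 of 4) to 13381 and 11317 CPM. The part of these in the alpha ratios was not tested.

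In delta cells 3 of 27 genes were past the limit higher and 3 lower, beside 10.7% and 10.5% of all genes, and the median log2 ratio was 0.10. The 3 lower genes were all of the mevalonate steps. Pmvk was at 33.5 CPM (28.3 to 39.5) in the library labelled BcBKO and 46.1 CPM (39.2 to 53.8) in the flox/flox library (ratio 0.73, 0.58 to 0.92), and Fdps and Idi1 had the same ratio of 0.73 with intervals that included 1. Scd2 was higher at 34.5 and 26.2 CPM (1.32, 1.01 to 1.73). Stard4 (8.15 and 4.61 CPM) and Dhcr7 (8.85 and 5.47 CPM) were higher with intervals that included 1, and in barcodes of 1 class the log2 ratio of Stard4 was 0.24, within the limit. Scd2 was thus past the limit higher in all 3 endocrine classes. Markers of other cells were present in delta cells too. Alpha markers (6 of 6 with UMIs) summed to 54592 CPM in the library labelled BcBKO and 44570 CPM in the flox/flox library. Beta-cell markers (8 of 8) summed to 51040 and 47622 CPM, and acinar markers (5 of 5) to 66.1 and 420 CPM. Ppy was at 45644 and 43819 CPM. The part of these in the delta ratios was not tested.

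In endothelial cells 2 of 25 genes were higher and 1 lower, beside 4.73% and 5.32% of all genes. Stard4 was at 45.1 CPM (41.1 to 49.3) in the library labelled BcBKO and 34.2 CPM (31.2 to 37.5) in the flox/flox library, a ratio of 1.32 (1.16 to 1.499), and in barcodes that met the endothelial limit alone it was at 49.0 and 37.5 CPM (1.31, 1.09 to 1.57). Cyp51 was at 11.7 and 8.93 CPM (1.31, 1.01 to 1.69), and Elovl6 was lower at 6.36 and 8.63 CPM, with an interval that included 1. By the mural limit 4 of 25 genes were higher and 0 lower, beside 5.89% and 7.74% of all genes, and Stard4 was the one with the highest ratio, 1.42. That value rests on the barcodes that were also endothelial: in mural barcodes alone Stard4 had 1 UMI in the library labelled BcBKO and 0 in the flox/flox library. The others were Idi1 (ratio 1.41), Acaca (1.30) and Srebf2 (1.29), of which only Idi1 had an interval without 1. Macrophages had 7 of 23 genes higher and 6 lower, beside 10.3% and 25.1% of all genes. Among them only Acly, at 121 and 96.0 CPM (1.26, 1.07 to 1.49), had an interval that left out 1. The 6 lower genes, Fdps, Nsdhl, Sc5d, Srebf1, Scap and Fads1, had 11 to 32 UMIs in the library labelled BcBKO and 20 to 55 in the flox/flox library, too few to set apart at this depth.

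Counts in barcodes that met 1 limit only are given beside those by the limits as they stand. In alpha cells 14 of 27 genes were higher and 1 lower, beside 14.9% and 3.49% of all genes, and in delta cells 4 of 25 were higher and 3 lower, beside 11.4% and 13.7%. In endothelial cells 3 of 26 were higher and 3 lower, beside 8.28% and 7.77%. Among mural barcodes 4 of 12 were higher and 2 lower, beside 17.9% and 21.4%, and among macrophages 4 of 19 were higher and 4 lower, beside 12% and 20.8%. In barcodes of 1 class Scd2 was also higher, at 36.8 and 23.1 CPM in delta cells (1.59, 1.15 to 2.23) and at 21.5 and 14.7 CPM in alpha cells (1.47, 1.11 to 1.94). It was past the limit there in mural barcodes, at 63.6 and 42.9 CPM (1.48, 0.96 to 2.27), and in macrophages, at 10.1 and 7.86 CPM (1.28, 0.63 to 2.58), with intervals that included 1.

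**Figure D2:**
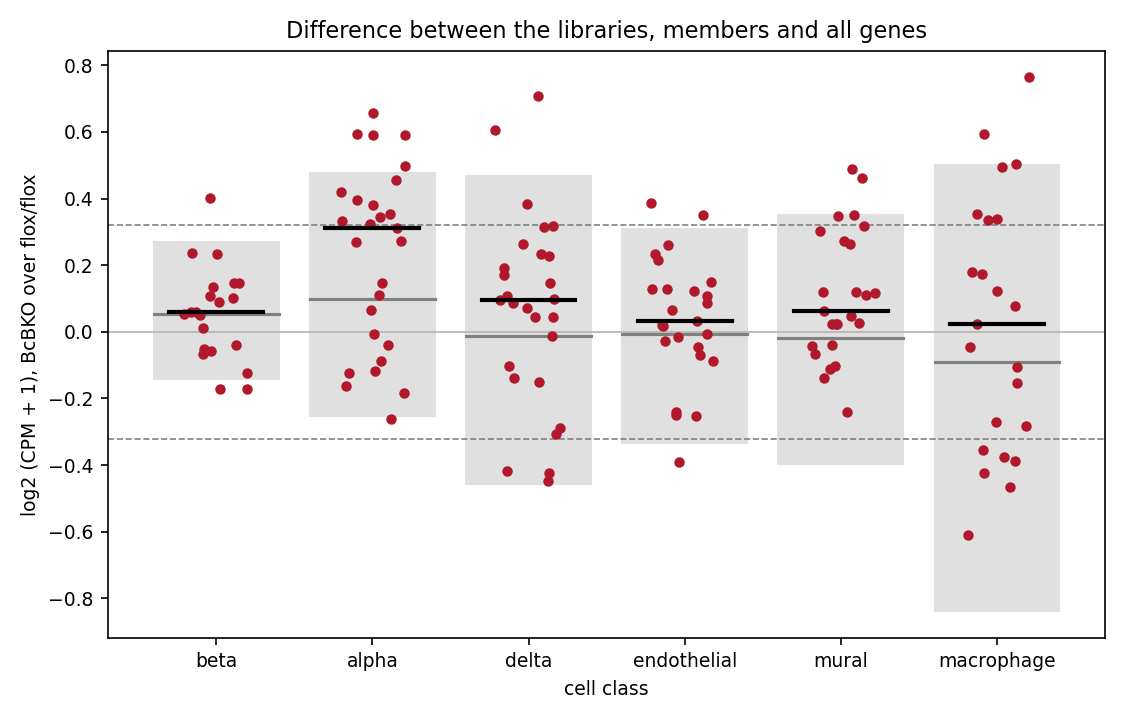
Log2 ratio of CPM + 1, the library labelled BcBKO over flox/flox, of each gene that passed the minimum (points), with their median (black bar), by cell class; the grey box spans the 5th to 95th percentile of all genes with their median (grey line), and dashed lines mark 0.32 above and below 0. The alpha points lie higher than in the other classes, with a median of 0.31, and the beta points lie close to 0 except Scd2.

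Where in the islet the pathway is read out depended on what the counts were divided by, because the share of hormone RNA differed between classes. In barcodes of 1 class hormone RNA took 68.2% and 69.95% of the UMIs of beta cells. It took 6.12% and 5.25% of those of endothelial cells. Over all UMIs, and in barcodes of 1 class, 17 genes were highest in the same class in both libraries: 2 in beta cells (Sqle and Msmo1), 2 in delta cells, 5 in endothelial, 7 in mural cells and 1 in macrophages. With hormone and mitochondrial UMIs left out of the totals 22 were, of which 18 were highest in beta cells. That scale raises beta-cell levels of all genes most. At a mean of 5 CPM over classes and libraries, 18 of 28 genes of the pathway (64.3%) were highest in beta cells in both libraries on it, beside 19.3% of all 11623 genes. Over all UMIs 2 of 26 were (7.69%), beside 1.06% of all genes. The following levels are on that hormone-free scale.

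Acly was at 960 CPM in beta cells of the library labelled BcBKO and 856 CPM in those of the flox/flox library. Delta cells followed with 641 and 548 CPM and alpha cells with 338 and 267 CPM, all in the same order in both libraries. Over all UMIs, delta cells were higher than beta cells, at 407 and 353 CPM, so the first place in that order belongs to the scale. Sqle was at 103 and 97.5 CPM in beta cells, 46.3 and 36.5 CPM in delta cells and 28.0 and 30.9 CPM in alpha cells. Msmo1 was at 124 and 147 CPM in beta cells and at 39.7 and 24.2 CPM in alpha cells. Both were highest in beta cells on either scale. In endothelial cells Sqle was at 5.69 and 4.91 CPM over all UMIs, where free beta-cell RNA, if it came with the insulin UMIs found there, would give 2.23 and 1.77 CPM.

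Paralogs differed in where they were found. Insig1 was at 146 and 158 CPM in beta cells and at 49.7 CPM or less in every other class, whereas Insig2 was at 77.3 and 80.4 CPM in beta cells, 73.5 and 79.0 CPM in delta cells and 66.4 and 75.4 CPM in mural cells, so its first 3 classes were close together. Srebf2 and Srebf1 were both highest in beta cells on the hormone-free scale. They were at 49.4 and 42.7 CPM there in the library labelled BcBKO, against 48.5 and 40.1 CPM in the flox/flox library. Scd2 was at 71.1 and 55.6 CPM in beta cells and 71.2 and 48.0 CPM in mural cells, whose order differed between the libraries, while Scd1 stayed at or below 3.24 CPM in every class. Elovl5 was at 88.7 and 89.2 CPM in beta cells and 90.5 and 83.0 CPM in endothelial cells, and lowest in alpha cells at 21.5 and 16.6 CPM. Elovl6 was at 28.9 and 29.0 CPM in beta cells and 6.50 and 9.52 CPM in endothelial cells. Fads1 was within 7.64 to 22.4 CPM in all classes, and Fads2 had 9 UMIs or fewer in each. Over all UMIs the first places differed. Srebf1, Insig2 and Scd2 were then highest in mural barcodes in both libraries. Elovl5 was highest in endothelial cells, Elovl6 in delta cells and Fads1 in macrophages, again in both libraries. Srebf2 was highest in mural barcodes under the label BcBKO and in delta cells under flox/flox. Insig1 was then highest in beta cells under the label BcBKO and in macrophages under flox/flox.

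Outside beta cells, 4 genes were highest in the same class in both libraries. Fasn was highest in alpha cells, at 30.03 and 28.6 CPM, next in delta cells at 21.8 and 26.7 CPM, and at 18.4 and 15.8 CPM in beta cells. On this scale fatty acid synthase was thus not highest where Acly was. Over all UMIs Acly was highest in delta cells in both libraries. Fasn was then highest in alpha cells under the label BcBKO and in delta cells under flox/flox. Stard4 was highest in endothelial cells, at 54.0 and 40.8 CPM, against 16.04 and 17.1 CPM in beta cells. Mural barcodes alone had 1 UMI of Stard4 in the library labelled BcBKO and 0 in the flox/flox library, where the limit taken for a count of 0, 3 UMIs of the total, is 2.63 CPM over all UMIs. Free RNA of vessel cells would give 0.147 and 0.119 CPM of Stard4 in beta cells, below the 4.67 and 4.76 CPM measured there over all UMIs. Nsdhl, a sterol dehydrogenase, was highest in mural barcodes at 22.7 and 20.6 CPM, which rest on 14 and 21 UMIs, and was at 10.9 and 11.5 CPM in beta cells. Fads2 was highest there too, with 2 UMIs in each library.

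**Figure D3:**
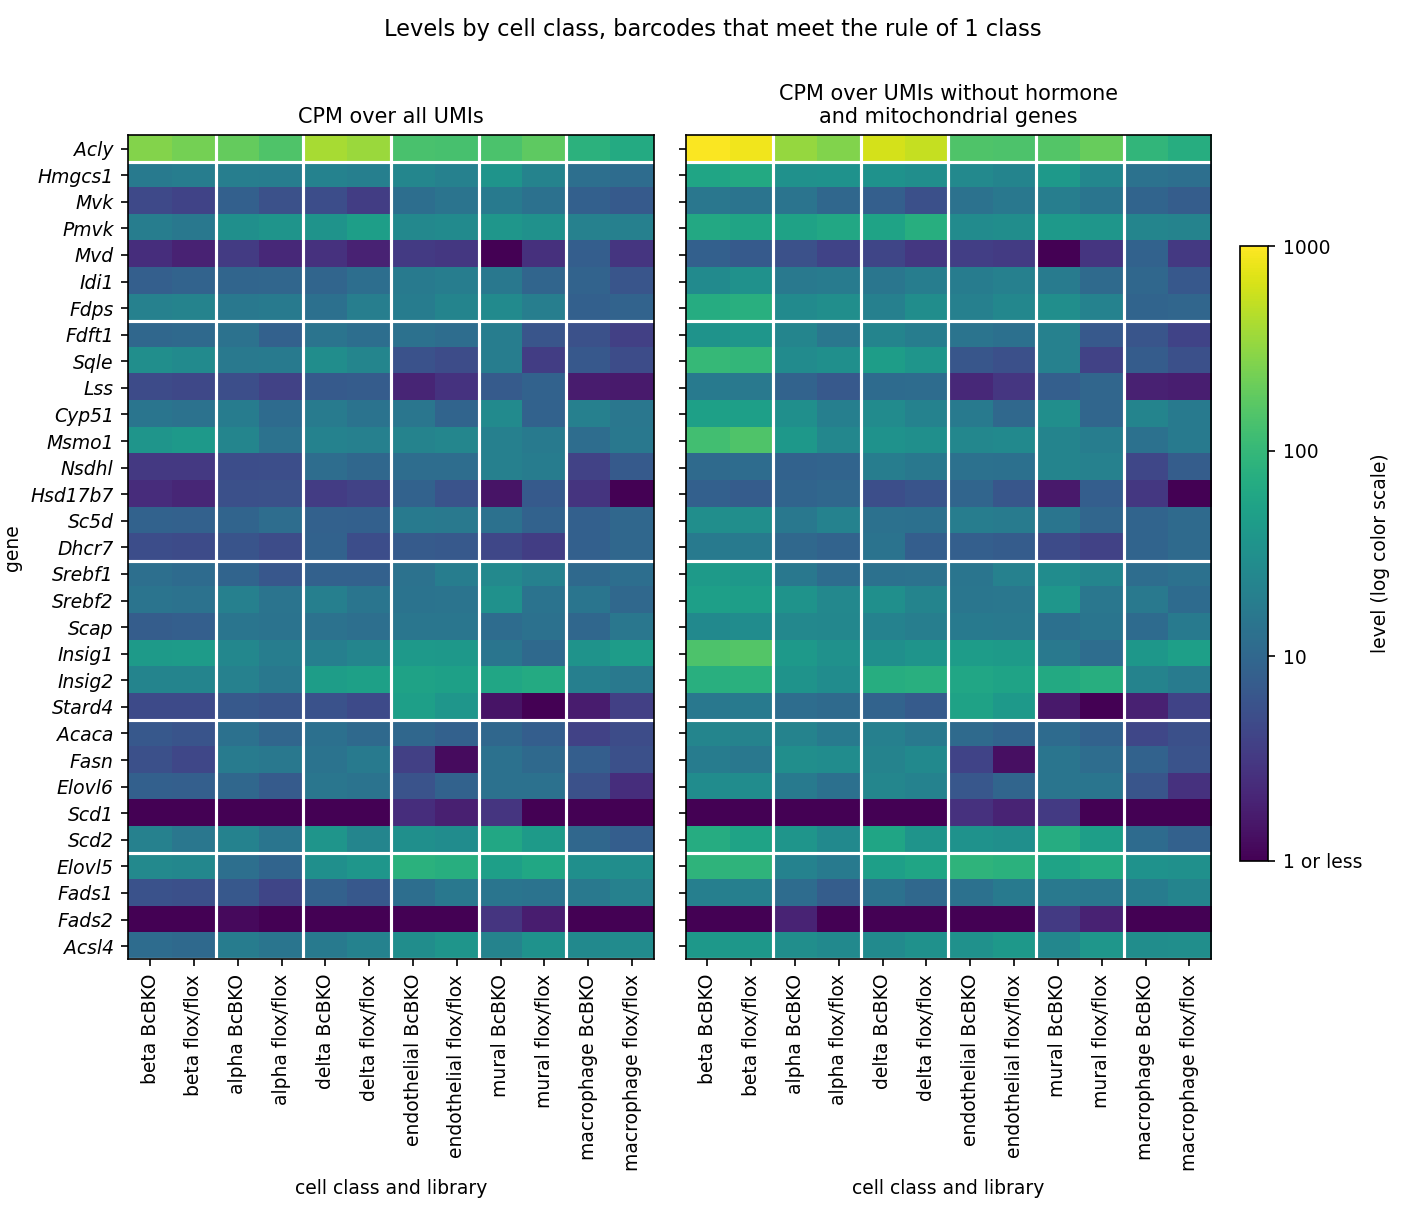
Level of each of the 31 genes in barcodes that met the limit of 1 class, by class and library, over all UMIs (left) and over UMIs without hormone and mitochondrial genes (right), on a log color scale of CPM. On the right the beta columns are the brightest for 18 genes in both libraries, while Fasn is brightest in alpha cells and Stard4 in endothelial cells.

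**Figure D4:**
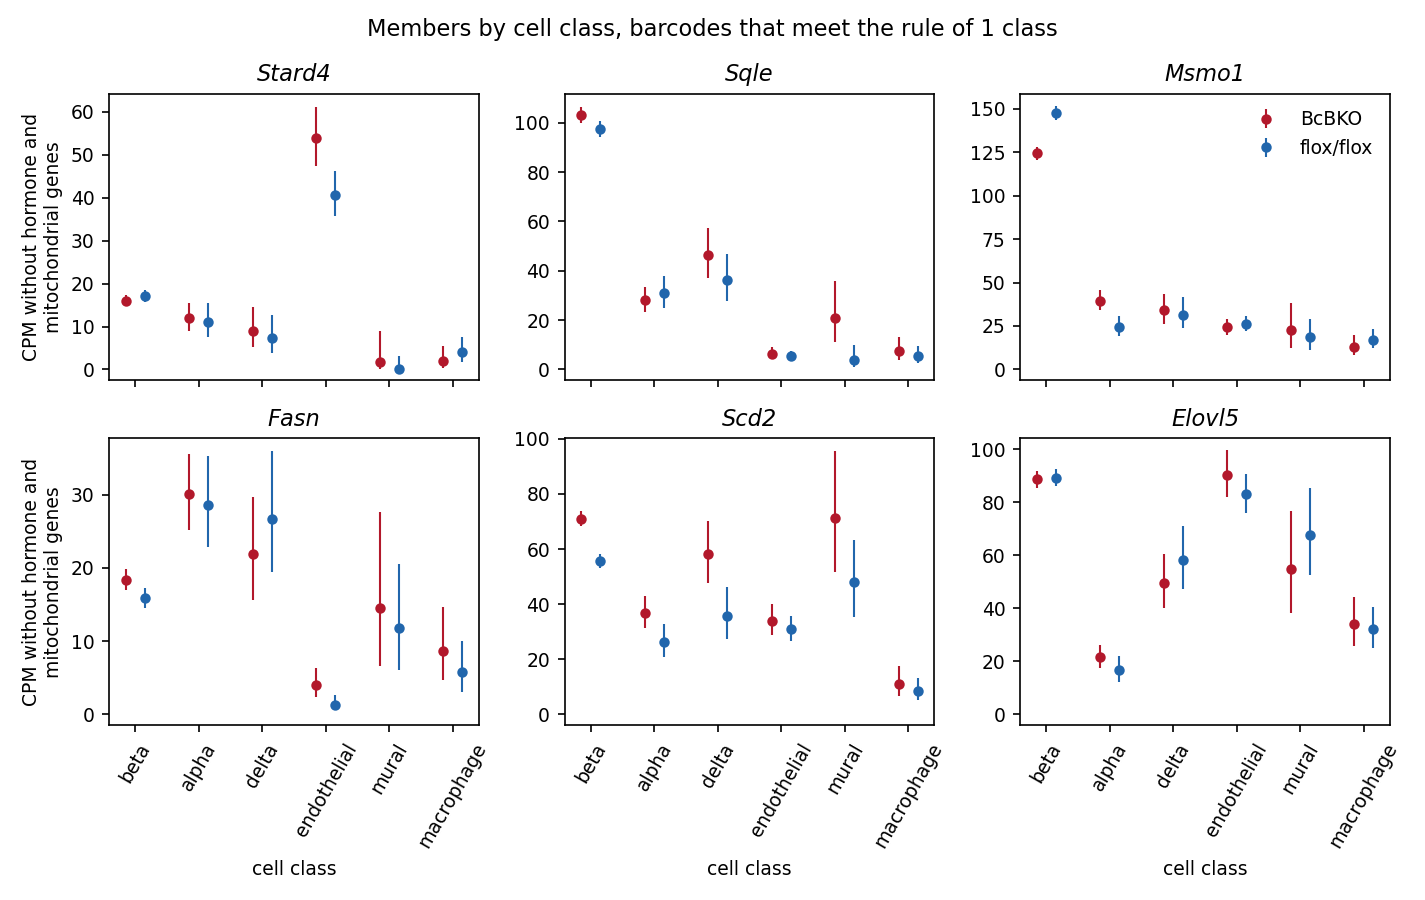
Hormone-free CPM of 6 genes by cell class in barcodes of 1 class, for the libraries labelled BcBKO (red) and flox/flox (blue), with 95% counting intervals. Sqle and Msmo1 peak in beta cells, Stard4 in endothelial cells and Fasn in alpha cells. The red point of Scd2 lies above the blue one in all 6 classes, with overlapping intervals in alpha, endothelial, mural and macrophage barcodes.

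Within beta cells, barcodes with more insulin had more RNA of the pathway per hormone-free UMI. Cells were set into 3 bins with insulin at 25 to 40%, 40 to 55% and over 55% of UMIs, with 45, 345 and 2668 cells in the library labelled BcBKO and 29, 140 and 2581 in the flox/flox library. Acly was at 687, 860 and 978 CPM from the lowest to the highest bin in the library labelled BcBKO, and at 588, 716 and 868 CPM in the flox/flox library. Msmo1 was at 61.3, 106 and 128 CPM, against 87.5, 109 and 150 CPM, and Insig1 at 83.1, 109 and 153 CPM, against 101.2, 122 and 161 CPM. The summed level of each of the 6 roles was in this order in both libraries, but some steps lay within counting error. In the library labelled BcBKO the mevalonate steps were at 245 CPM (229 to 260) in the middle bin and 247 CPM (241 to 253) in the highest. Fatty acid synthesis there was at 105 CPM (78.6 to 137) in the lowest bin and 133 CPM (122 to 145) in the middle one.

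Between the highest and the lowest bin, 16 of 29 genes that passed were past 0.32 (log2) higher in the library labelled BcBKO, beside 24.3% of all genes, and 18 of 28 in the flox/flox library, beside 30.5%. Lower were 1 and 2, beside 25.6% and 26% of all genes. Their median log2 ratios were 0.37 and 0.53, those of all genes 0.01 and 0.05. Genes with intervals above 1 in both libraries were Acly (1.42 and 1.48), Msmo1 (2.09 and 1.72), Insig1 (1.84 and 1.59) and Elovl5 (1.92 and 1.94). Depth and RNA of other cells moved with the bins: median UMIs were 20699, 25940 and 34373 in the library labelled BcBKO and 19296, 30281 and 38992 in the flox/flox library. Endothelial markers (6 of 6 with UMIs) summed to 817, 551 and 95.1 CPM, and to 1454, 1451 and 81.1 CPM. The duct markers (2 of 2) summed to 778, 756 and 134 CPM, and to 1698, 194 and 196 CPM. Not all lists fell: acinar markers (5 of 5) summed to 51.5, 61.1 and 65.8 CPM, and to 358, 367 and 431 CPM. The 5 alpha markers on this scale summed to 8579, 4999 and 4930 CPM, and to 3475, 3055 and 4616 CPM, with at most 1 of 5 without UMIs in a bin. Their part in the pattern was not tested. The highest bin set against the middle one, a comparison added after the data were seen, gave 1 of 29 genes higher (Insig1) in the library labelled BcBKO, beside 6.21% of all genes, and 5 of 29 in the flox/flox library, beside 13.3% (Hmgcs1, Fdps, Msmo1, Insig1 and Fasn). Lower were 1 and 0, beside 10.9% and 19%.

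Within the bins, the ratio of Scd2 between the libraries was 1.39 (0.66 to 3.06), 1.26 (0.99 to 1.63) and 1.29 (1.21 to 1.38) from the lowest to the highest, and its interval left out 1 in the highest bin only. Those of Acly were 1.17 (0.98 to 1.39), 1.20 (1.13 to 1.28) and 1.13 (1.11 to 1.15). Msmo1 had ratios of 0.70 (0.41 to 1.19), 0.97 (0.81 to 1.15) and 0.85 (0.82 to 0.89). Those of Hmgcs1 were 0.83 (0.44 to 1.56), 1.17 (0.92 to 1.51) and 0.86 (0.80 to 0.91). In the lowest bin all 4 intervals included 1. Fatty acid synthesis summed to 105, 133 and 144 CPM in the library labelled BcBKO and 71.1, 108 and 124 CPM in the flox/flox library, while the mevalonate steps summed to 202, 245 and 247 CPM, against 202, 216 and 260 CPM.

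**Figure D5:**
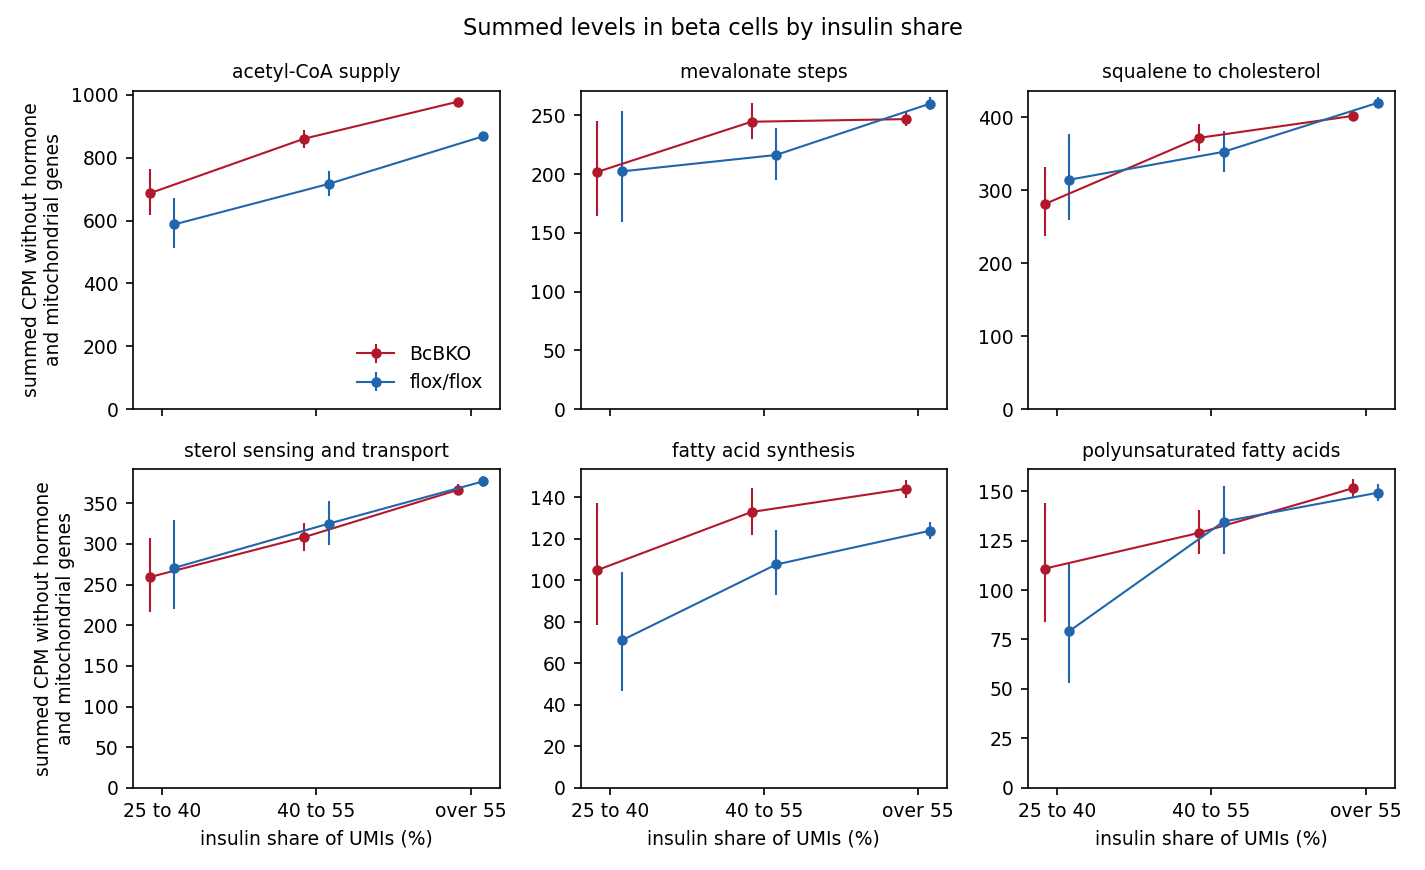
Summed hormone-free CPM of each of the 6 roles in beta cells with insulin at 25 to 40%, 40 to 55% and over 55% of UMIs, for the libraries labelled BcBKO (red) and flox/flox (blue), with 95% counting intervals. All 6 sums are lowest in the lowest bin, which holds 45 and 29 cells, and the red line lies above the blue one in every bin for acetyl-CoA supply and fatty acid synthesis.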

How the data were processed

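The authors deposited raw counts, as whole UMIs per gene and barcode, in 1 matrix per library. Per the submitters' processing notes Cell Ranger 3.1.0 and Seurat 4.0.0 were used with mm10, whereas cellranger 6.1.2 stands in the matrix headers. The version behind the counts is therefore unsettled.

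Barcodes were filtered and classed as given with the results, and UMIs were summed per class and library. Intervals were exact Poisson intervals for CPM and exact conditional intervals for ratios, at 95%. A gene was compared at a mean of 5 CPM and 30 UMIs in all, with a pseudocount of 1 CPM. The hormone-free scale leaves out 8 hormone genes and mitochondrial genes. Free RNA was estimated as the beta-cell CPM times the class's insulin CPM over that of beta cells, and for vessel RNA likewise from endothelial markers. Doublets were kept in the main values. As an alternative, Scrublet calls (177, or 2.08%, in the library labelled BcBKO and 170, or 2.25%, in the flox/flox library) were removed, which do not find doublets of like cells. Positions come from GENCODE M21. Python 3.11.15, scipy 1.17.1, scanpy 1.11.5, R 4.3.3 and edgeR 4.0.16 (TMM factors only) were used, and the summing and the intervals were tested on simulated data.

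The members, the lists and the rules were chosen with earlier results of these data known. Named were all members past the minimum in beta cells, in other classes those past the limit of 0.32 (log2), the highest of each role and the paralog pairs, and listed neighbours of the pathway past it in beta cells. Other genes given by name, such as those under the minimum, were added after their values were seen. Promoters of Sqle, Fdft1, Fdps, Stard4, Scd1, Scd2 and Fads1 were not used here.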

Additional observations from a re-analysis of the deposited data

How the results depend on the processing

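No paired analysis was possible because each group is 1 library. Of the counts under 13 alternatives, 114 stayed within 1.5 times the main count and 52 did not, and 0 turned round. The log2 ratios of 40 called gene and class pairs all kept their sign. Called pairs were picked for being past the limit, and the alternatives reuse the same counts, so a kept sign is no independent support. Counts that moved follow, with the main count in brackets and the share of all genes under the same setting behind each. Their cause was not tested unless the setting itself sets it, as a stricter fold or a minimum does.

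TMM and median-of-ratios factors each gave 6 higher (13) in alpha cells, beside 7.18% and 7.25% of all genes, 1 lower (0) there, beside 6.28% and 6.26%, 5 higher (3) in delta cells, beside 11.6% and 11.5%, and 3 lower (6) in macrophages, beside 19.3% under both. Hormone-free totals gave 5 higher in delta cells (11.9% of all genes) and 1 lower in alpha cells (4.998%), and put 22 genes highest in beta cells (4), 3 in alpha or delta cells (7), 3 in endothelial or mural cells (16) and 0 in macrophages (2). The mean over cells gave 5 higher (12.6% of all genes) and 5 lower (3; 12.2%) in delta cells, and 2 lower in endothelial cells (1; 6.30%), 1 in mural cells (0; 9.67%) and 2 in macrophages (23.8%). A pseudocount of 0.1 gave 5 higher in delta cells (11.6%). A pseudocount of 5 gave 8 higher in alpha cells (7.74%), 1 in endothelial cells (2; 2.63%), 2 in mural cells (4; 3.35%) and 4 in macrophages (7; 7.37%), and 0 lower in endothelial cells (3.59%) and 2 in macrophages (19.97%). No minimum gave 4 higher in endothelial cells (9.38%), 7 in mural cells (11.6%) and 11 in macrophages (17.7%). Removing doublet calls gave 5 higher in delta cells (10.3%), 1 lower in alpha cells (3.07%), 1 in mural cells (7.57%) and 3 in macrophages (25.2%), and 1 gene highest in macrophages. Barcodes of 1 class gave 4 higher in macrophages (12%), 1 lower in alpha cells (3.49%), 3 in endothelial cells (7.77%) and 2 in mural cells (21.4%), with 2 genes highest in beta cells, 4 in alpha or delta cells and 1 in macrophages. Stricter class limits gave 6 higher in delta cells (11.7%) and 1 lower in alpha cells (3.71%) and in mural cells (8.15%). At 1.5-fold there were 0 higher in beta (0.568%), endothelial (1.34%) and mural cells (1.50024%), 4 in alpha cells (2.44%) and 2 in macrophages (3.48%), and 0 lower in delta (2.37%) and endothelial cells (1.38%) and 1 in macrophages (10.2%).

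Depth limits mural barcodes of 1 class and macrophages most, where most genes have few UMIs. Intervals cover counting only, and no setting stands in for a second library.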
